A study of Mus musculus with 8 samples.

Results

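The BCL2 family decides at the outer mitochondrial membrane whether a cell lives or dies. The 9 members described here, of the 31054 features in each count table, were chosen by gene symbol. The 4 anti-apoptotic members are Bcl2, Bcl2l1 (BCL-XL), Mcl1 and Bcl2a1b, and the 5 pro-apoptotic members are Bax, Bak1, Bcl2l11 (BIM), Bbc3 (PUMA) and Pmaip1 (NOXA). All 9 symbols were found once in every library. Their transcripts were followed by library, by cell type and by the balance of the first set over the second.

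The data come from single-cell RNA sequencing of mouse bone marrow in a model of JAK2V617F-driven myelofibrosis, in which the study asks about the role of Gli1, a hedgehog transcription factor, in blood-forming cells. Irradiated (10.5 Gy) female B6.SJL recipients aged 8 to 10 weeks received marrow cells from wild type or Gli1-/- donors aged 8 weeks. The donor cells had been collected 48 hours earlier and given a retroviral transgene, either JAK2V617F, a kinase mutant of myeloproliferative neoplasms that signals without ligand, or JAK2WT in the controls, so that all 4 groups carried a transgene. Marrow was taken 112 days after transplantation, depleted of cells with CD11b, GR1, TER119, B220 or CD3, and sorted into lineage-negative cells with and without GFP. Cells without GFP can include untransduced donor cells and cells of the recipient. Each group is 1 library pooled from 3 mice, so n = 1 and differences between groups could be neither tested nor checked in replicates. Where 4 values follow each other, the wild type JAK2WT library comes first, then wild type JAK2V617F, Gli1 knockout JAK2WT and, last, Gli1 knockout JAK2V617F. Intervals in parentheses are 95% and cover counting error only.

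BAX and BAK open pores in the outer mitochondrial membrane, cytochrome c leaves through them, and the apoptosome then activates caspases. BCL2, BCL-XL, MCL1 and A1 (Bcl2a1b) hold BAX and BAK in check, and the BH3-only proteins BIM, PUMA and NOXA release that hold. In blood formation, MCL1 is known for its role in stem cells and neutrophils, BCL2 in lymphocytes and BCL-XL in late red cell precursors.

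The libraries kept 7196, 3432, 3770 and 6035 cells, with medians of 4427.5, 13250, 17393 and 13675 unique molecular identifiers (UMIs) per cell. Levels are counts per 1000000 UMIs (CPM). A UMI counts a transcript once at its 3' end, so no scaling by length was applied. The library of wild type marrow with JAK2WT stood apart in depth and makeup, with 17.1% T cell-like cells against 0.67%, 1.54% and 1.14%. Clusters without a name held 41.8%, 17.8%, 42.7% and 24.7% of cells. Erythroid-like cells were 36.7% of wild type marrow with JAK2V617F and between 0.862% and 1.33% of the other libraries. Between 5 and 14 cell barcodes were shared by any pair of libraries. Xist had 78805, 36784, 864 and 276 UMIs and 4 Y-linked genes had 1, 0, 9082 and 11888, so genotype and donor sex cannot be told apart. Gli1 had 0, 2, 0 and 4 UMIs, too few to check the knockout.

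The 9 members together summed to 523.6, 490.2, 498.8 and 521.5 CPM in kept cells. Bcl2, Mcl1, Bax and Bak1 held 91.3%, 92.9%, 93.8% and 92.4% of those UMIs. The sequence before the start site is shown for these 4 members, since the levels below turn on them. It is the 250 bases before the RefSeq start (GRCm38.p6, the mm10 assembly), 5' to 3' on the gene's strand. Capitals mark GGGCGG (the GC box) or CACGTG (the E-box bound by MYC and related factors), on either strand.
Bcl2, chr1:106714291-106714540, minus strand: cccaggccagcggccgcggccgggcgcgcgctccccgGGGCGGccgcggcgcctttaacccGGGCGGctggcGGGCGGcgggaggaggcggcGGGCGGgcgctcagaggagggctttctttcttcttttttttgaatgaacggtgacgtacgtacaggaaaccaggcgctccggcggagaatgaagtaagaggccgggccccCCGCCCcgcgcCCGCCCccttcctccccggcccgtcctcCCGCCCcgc
Mcl1, chr3:95658471-95658720, plus strand: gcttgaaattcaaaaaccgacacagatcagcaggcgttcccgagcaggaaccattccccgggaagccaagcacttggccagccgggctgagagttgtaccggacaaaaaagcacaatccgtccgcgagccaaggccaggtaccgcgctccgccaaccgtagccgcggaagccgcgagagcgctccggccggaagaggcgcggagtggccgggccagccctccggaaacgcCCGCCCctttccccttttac
Bax, chr7:45466899-45467148, minus strand: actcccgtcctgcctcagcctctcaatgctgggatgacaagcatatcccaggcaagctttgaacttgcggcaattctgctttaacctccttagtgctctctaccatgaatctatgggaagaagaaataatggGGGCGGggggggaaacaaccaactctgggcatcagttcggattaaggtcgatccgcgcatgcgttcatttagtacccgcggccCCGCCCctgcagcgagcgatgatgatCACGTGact
Bak1, chr17:27028628-27028877, minus strand: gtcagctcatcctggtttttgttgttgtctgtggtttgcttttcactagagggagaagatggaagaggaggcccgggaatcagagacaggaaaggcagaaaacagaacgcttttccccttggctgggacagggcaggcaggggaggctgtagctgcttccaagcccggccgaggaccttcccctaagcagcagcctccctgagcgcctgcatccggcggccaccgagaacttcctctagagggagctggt
The Bcl2 window held 7 GC boxes, the Bax window 2 and the Mcl1 window 1, while the Bak1 window held 0. The Bak1 window lies inside the gene as GENCODE annotates it (27019810 to 27029009), so its 0 describes that stretch only. Of 32851 mouse promoter windows of this length, 32.7% held at least 1 GC box. Bax had an E-box whose first base lies 9 bases before the start, a motif found in 6.02% of all windows. A match to TTCNNNGAA, the letters bound by STAT factors that act below JAK2, was searched on both strands. The 13 windows searched covered 8 of the 9 members, with Pmaip1 left out, and none held it. Of all windows 7.02% did, so 13 windows are too few for a contrast. These counts describe letters in a window and do not show binding.

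The balance of the family differed widely between cell types. The share of anti-apoptotic UMIs among the UMIs of all 9 members averaged 82.0% over libraries in neutrophil-like cells, the highest of 13 marker-named classes, and 31.7% in erythroid-like cells, the lowest. The neutrophil mean includes 92.0% from only 24 cells of Gli1 knockout with JAK2WT. Innate lymphoid-like cells were above neutrophil-like cells in both wild type libraries (83.4% against 78.8% and 79.4% against 77.0%). They were below them in both Gli1 knockout libraries. Innate lymphoid-like (79.9%), natural killer (NK) cell-like (77.3%) and plasma cell-like cells (76.2%) stood near the top. Stem and multipotent progenitor-like cells (HSC/MPP) stood at 59.0% and granulocyte-monocyte progenitor and promyelocyte-like cells (GMP) at 43.2%. The 13 classes each had at least 20 kept cells in 2 or more libraries, and only libraries with that many are averaged. Macrophage-like cells reached it only in wild type with JAK2WT (29 cells, 74.5%) and were left out. A name means only that a cluster resembles the type by its markers. Sorted marrow lacking lineage antigens still held cells resembling T cells, B cells, neutrophils and red cell precursors.

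**Figure D1:**
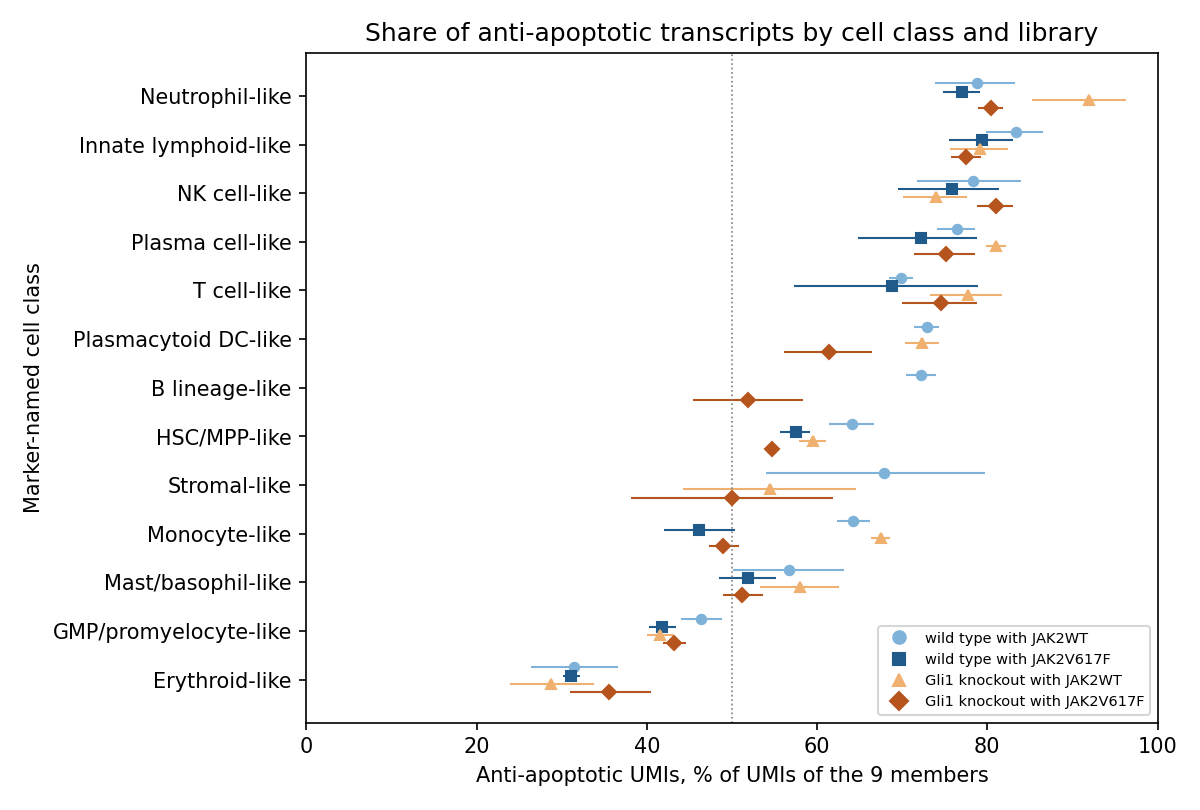
Share of anti-apoptotic UMIs among the UMIs of the 9 members (x axis, percent) in 13 marker-named cell classes (y axis) and 4 libraries (points), with exact Clopper-Pearson 95% intervals; the dotted line marks 50%. Neutrophil-like cells average 82.0%, including 92.0% from 24 cells of Gli1 knockout with JAK2WT, and erythroid-like cells 31.7%. The monocyte-like points with JAK2V617F (46.1% and 49.0%) lie apart from those with JAK2WT (64.2% and 67.5%).

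The classes with a high share reached it through different anti-apoptotic members. Neutrophil-like cells had Mcl1 at 266.5 (230.2 to 306.8), 420.5 (395.8 to 446.3), 574.8 (463.4 to 704.9) and 447.1 CPM (428.2 to 466.5), and Mcl1 made up between 79.8% and 93.6% of their anti-apoptotic UMIs. Their Bcl2 was at 57.99, 5.038, 56.23 and 9.076 CPM, higher in both JAK2WT libraries, which held 90 and 24 such cells. Their Bax was at 31.76, 67.82, 0 and 45.8 CPM. The 0 of the third library has an exact Poisson upper bound of 23.05 CPM.

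In NK cell-like, innate lymphoid-like and T cell-like cells most of the anti-apoptotic UMIs were Bcl2, whereas in B lineage-like cells Mcl1 made up 73.5% and 77.8% of them in the 2 libraries with enough such cells. In NK cell-like cells Bcl2 was at 506.3 (409.2 to 619.6), 955.2 (790.6 to 1144), 600.9 (528.5 to 680.3) and 813.3 CPM (758.2 to 871.4). In innate lymphoid-like cells it was at 659.7, 581.7, 512.0 and 536.5 CPM, and Mcl1 made up only 22.1% to 32.8% of the anti-apoptotic UMIs. T cell-like cells followed with 246.1, 410.4, 708.6 and 528.7 CPM. In the library of the low first value, 565 of 1228 T cell-like cells lay in the same cluster, against 2 to 4 cells elsewhere. Rag1, a gene of immature T cells, was among the leading genes of that cluster. Bcl2 was not compared between the T cell clusters.

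In the order of Bcl2 by class, neighbours overlapped over libraries except at 1 step. NK cell-like cells (mean 719 CPM), innate lymphoid-like (572), T cell-like (473), plasmacytoid dendritic-like (295), monocyte-like (202), HSC/MPP-like (109), stromal-like (100) and mast cell and basophil-like cells (92.3) came first. Below that step stood B lineage-like (58.6), GMP-like (42.5), plasma cell-like (40.9), neutrophil-like (32.1) and erythroid-like cells (8.72). The step was narrow, from a lowest 78.9 CPM in mast cell and basophil-like to a highest 77.7 CPM in B lineage-like cells. It does not split the order, since stromal-like cells above it went down to 63.3 CPM. The order of Mcl1 was flatter. It ran from 427 CPM in neutrophil-like to 107 CPM in erythroid-like cells. Its only step without overlap of neighbours lay between plasmacytoid dendritic-like (203) and HSC/MPP-like cells (167). Mast cell and basophil-like cells, ranked lower, still reached 185 CPM, above the plasmacytoid dendritic-like low of 177 CPM.

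In the mean over libraries, erythroid-like cells had the least Bcl2 and the most Bax of the 13 classes, though each overlapped the next class. Neutrophil-like cells had less Bcl2 in both JAK2V617F libraries, and monocyte-like cells more Bax in wild type with JAK2V617F. NK cell-like cells also had more Bax there (243 CPM) and in Gli1 knockout with JAK2WT (215 CPM). In erythroid-like cells Bax was at 157.2 (134.2 to 183.2), 227.1 (220.2 to 234.0), 201.3 (171.1 to 235.2) and 212.3 CPM (184.0 to 243.7), while Bcl2 was at 9.53, 6.378, 6.37 and 12.61 CPM. Bcl2l1 was at 3.812, 7.675, 2.548 and 32.58 CPM. The high last value came from the more mature erythroid cluster, led by haemoglobin genes, with 71.3 CPM over 28 cells, where globin genes took 10.5% of UMIs. In wild type marrow with JAK2V617F the same cluster held 719 cells, took 3.21% of UMIs as globin and had Bcl2l1 at 9.40 CPM.

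Plasma cell-like cells had low CPM of both pore-forming members. Bax was at 52.04, 64.49, 40.96 and 40.52 CPM, and Bak1 at 8.589, 8.322, 7.766 and 9.596 CPM, the lowest Bak1 of the 13 classes in the mean (8.57 CPM) with no overlap with the next. Bax had class means of 123 CPM (HSC/MPP-like cells) or more except in plasma cell-like (49.5 CPM) and neutrophil-like cells (36.3 CPM), and its only step without overlap lay between HSC/MPP-like and plasma cell-like cells. Outside plasma cell-like cells, class means of Bak1 lay between 29.9 and 76.6 CPM. Ighm was at 63300, 38300, 89800 and 13000 CPM in plasma cell-like cells. S100a8 was at 135000, 127000, 99500 and 128000 CPM in neutrophil-like cells. Such abundant transcripts lower the CPM of every other gene in a class. With JAK2WT, 5009 genes reached 10 CPM in either genotype in plasma cell-like cells, against 7655 in erythroid-like cells. The part of this scaling in the low Bax and Bak1 was not tested.

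**Figure D2:**
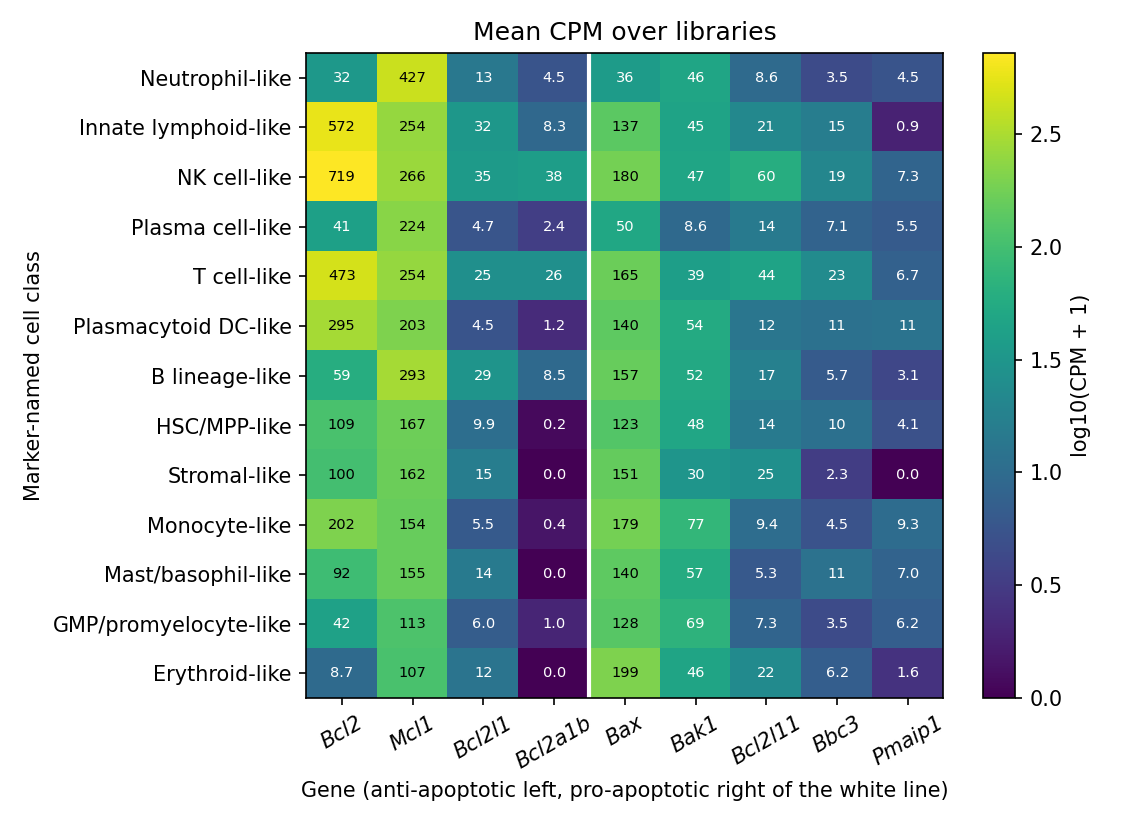
Mean CPM over libraries (numbers in the cells; colour is log10 of CPM + 1) of the 9 members (x axis) in 13 marker-named classes (y axis), ordered from the highest to the lowest anti-apoptotic share. Bcl2 peaks in NK cell-like cells (719 CPM), Mcl1 in neutrophil-like cells (427 CPM) and Bax in erythroid-like cells (199 CPM).

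The scarcer members marked a few classes. Bcl2a1b was at 37.71, 40.47, 41.02 and 31.24 CPM in NK cell-like cells. It averaged under 10 CPM in all others of the 13 classes except T cell-like cells (25.5 CPM). It was far higher in cluster 19, an unnamed cluster of 20 to 36 cells in 3 libraries led by Fscn1, Ccr7 and Il4i1, genes known from mature dendritic cells. There it was at 716.8 (606.0 to 842.0), 819.4 (694.7 to 960.0) and 656.1 CPM (553.0 to 772.9) in the JAK2WT libraries of wild type and Gli1 knockout marrow and in the Gli1 knockout JAK2V617F library. Bcl2a1b is among the leading genes of that cluster, so this is a description. Pmaip1 in the same cells was at 159.8, 53.56 and 500.1 CPM. Mcl1 was at 416.5, 492.7 and 550.6 CPM, and Bcl2 had only 2, 13 and 1 UMIs. Bcl2a1b has near-identical neighbours, and 34.1% of the 90-base windows in the last 400 bases of its transcript also occur in Bcl2a1d, so its counts are uncertain.

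Bcl2l11, the BH3-only protein best known for deleting lymphocytes, was highest in NK cell-like cells at 43.09, 89.04, 72.39 and 34.27 CPM, with T cell-like cells next at 37.39, 48.29, 74.99 and 16.87 CPM. Bbc3, a p53 target, averaged 22.7 CPM in T cell-like, 19.3 in NK cell-like and 15.1 in innate lymphoid-like cells, and 10.9 CPM or less in the other classes. Class means of Pmaip1, also a p53 target, stayed at 11.1 CPM or less. For these 3 genes, neighbouring classes overlapped over libraries at every step.

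To lessen the part of makeup in comparing libraries, levels were averaged over 5 classes with the same weights in every library. Makeup within a class was not fixed. These were the classes with at least 100 kept cells in each library: HSC/MPP-like (weight 34.4%), GMP-like (21.3%), cluster 2 (19.7%), cluster 8 (13.3%) and innate lymphoid-like cells (11.3%). Cluster 2 was led by histone and mitosis genes with Pf4, and cluster 8 by F13a1, Ms4a6c, Ccr2 and Prtn3, monocyte and granule genes. HSC/MPP-like cluster 9 was led by the eosinophil granule genes Prg2, Prg3 and Epx beside Angpt1 and Meis1, and innate lymphoid-like cluster 7 also by H2-Aa. The HSC/MPP-like clusters 9 and 15 held 176 and 122, 337 and 153, 305 and 186, and 1309 and 952 cells. Their mix was thus not the same in every library. Median depth per cell was closer within classes than over libraries, for example 19692.5, 22216, 30498 and 24527.5 UMIs in GMP-like cells and 2055.5, 2357, 4472 and 3884 in innate lymphoid-like cells.

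At fixed class weights the balance was lower in the JAK2V617F library of each genotype, chiefly through more pro-apoptotic transcript. The anti-apoptotic members summed to 312.1, 320.4, 309.3 and 298.3 CPM and the pro-apoptotic members to 176.2, 244.8, 204.5 and 234.7 CPM. Anti-apoptotic transcripts were thus 63.9%, 56.7%, 60.2% and 56.0% of the total. The log2 ratio of anti- over pro-apoptotic CPM was 0.82 (0.74 to 0.91), 0.39 (0.32 to 0.46), 0.60 (0.53 to 0.66) and 0.35 (0.31 to 0.38). With JAK2V617F it differed by -0.44 (-0.55 to -0.32) in wild type and by -0.25 (-0.32 to -0.18) in Gli1 knockout marrow. Whether these 2 differences differ from each other was not tested. Between genotypes it differed by -0.04 (-0.12 to 0.04) with JAK2V617F and by -0.23 (-0.33 to -0.12) with JAK2WT. The last value was 0.02 at a finer clustering, and the differences with JAK2V617F were -0.25 in wild type there and -1.02 over all kept cells.

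**Figure D3:**
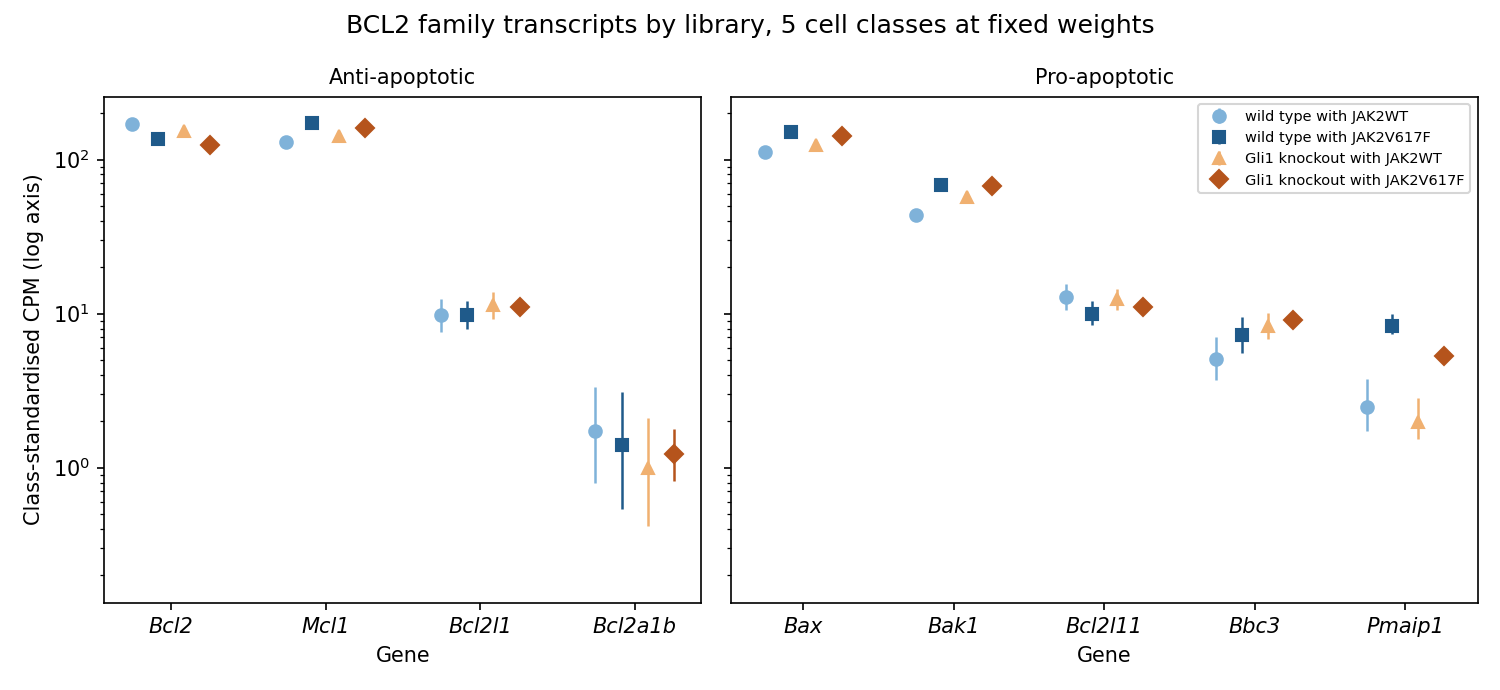
Class-standardised CPM (y axis, log scale) of the 4 anti-apoptotic (left) and 5 pro-apoptotic (right) members in the 4 libraries (points), with 95% intervals for counting error (Fay and Feuer's gamma method). The JAK2V617F libraries are higher than the JAK2WT library of their genotype in Mcl1, Bax, Bak1 and Pmaip1 and lower in Bcl2.

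Bcl2 was lower and Mcl1 higher in the JAK2V617F library of each genotype, and the anti-apoptotic sum was nearly level. Bcl2 was at 171 (161 to 181), 136 (127 to 145), 154 (146 to 161) and 125 CPM (121 to 129). Its log2 ratio, taken after adding 10 CPM to both values, was -0.31 (-0.43 to -0.19) with JAK2V617F in wild type and -0.28 (-0.36 to -0.20) in Gli1 knockout marrow. Bcl2 was lower with JAK2V617F in 5 of 5 classes in wild type and in 3 of 5 in Gli1 knockout marrow. At the finer clustering, which redrew the classes, the wild type ratio was 0.07. Mcl1 was at 130 (123 to 138), 174 (166 to 182), 143 (137 to 149) and 161 CPM (158 to 165). It was higher with JAK2V617F in 5 of 5 classes in each genotype, with log2 ratios of 0.39 (0.30 to 0.49) and 0.16 (0.10 to 0.22). Over all kept cells, where makeup differs, the wild type ratio of Mcl1 was -0.14.

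Bcl2l1 was nearly level at 9.78 (7.60 to 12.5), 9.75 (7.96 to 12.1), 11.4 (9.28 to 13.9) and 11.0 CPM (10.0 to 12.1). Its log2 ratios with JAK2V617F were -0.00 (-0.22 to 0.22) and -0.02 (-0.19 to 0.14), so a difference was not detectable within these bounds. Bcl2a1b stayed at 1.72, 1.41, 0.987 and 1.22 CPM, on 17 to 48 UMIs, and its intervals overlapped in all libraries.

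Both pore-forming members were higher with JAK2V617F in 5 of 5 classes in each genotype. Bax was at 112 (106 to 119), 151 (145 to 157), 125 (120 to 130) and 142 CPM (139 to 145), a log2 ratio of 0.40 (0.31 to 0.49) in wild type and 0.17 (0.11 to 0.23) in Gli1 knockout marrow. Bak1 was at 43.9 (40.3 to 47.9), 68.6 (64.7 to 72.9), 57.0 (54.0 to 60.2) and 67.2 CPM (65.2 to 69.3), with log2 ratios of 0.54 (0.42 to 0.67) and 0.20 (0.13 to 0.28). Wild type marrow with JAK2WT was the lowest library for Mcl1, Bax and Bak1 and the highest for Bcl2. The comparison within Gli1 knockout marrow does not use that library and gave the same signs at smaller size.

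Among BH3-only members, Pmaip1 differed most in proportion. It was at 2.49 (1.74 to 3.77), 8.35 (7.32 to 9.87), 1.98 (1.54 to 2.82) and 5.33 CPM (4.78 to 5.97), and the intervals of the JAK2V617F libraries lay clear of those of the JAK2WT libraries. The plain ratio with JAK2V617F was 3.35 (2.35 to 4.78) in wild type and 2.70 (2.09 to 3.48) in Gli1 knockout marrow, at a level under 10 CPM. In GMP-like cells it was at 2.631, 13.59, 2.526 and 6.053 CPM. Bcl2l11 was at 12.8, 10.0, 12.4 and 11.0 CPM, with log2 ratios of -0.19 (-0.38 to 0.00) and -0.09 (-0.23 to 0.04). Bbc3 was at 5.10 (3.69 to 7.06), 7.25 (5.57 to 9.50), 8.25 (6.83 to 10.1) and 9.13 CPM (8.30 to 10.1), lowest in wild type with JAK2WT, where its interval overlapped that of 2 other libraries.

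After adding 10 CPM to both values, 0 of the members reached 1.5-fold at fixed class weights, although the plain ratio of Bak1 in wild type was 1.56 (1.41 to 1.73). A gene counted as measured at 10 CPM or more in one of the libraries compared, which 5 members did for JAK2V617F in wild type and 6 in each of the other 3 comparisons. Among all measured genes, 6.25% reached 1.5-fold with JAK2V617F in wild type marrow (3.56% higher, 2.69% lower) and 0.546% in Gli1 knockout marrow (0.261% higher, 0.286% lower). For Gli1 knockout over wild type the shares were 0.904% with JAK2V617F (0.414% higher, 0.489% lower) and 2.46% with JAK2WT (1.56% higher, 0.902% lower). The pro-apoptotic members past the minimum had a median log2 ratio of 0.40 with JAK2V617F in wild type, where all measured genes had 0.05, and of 0.17 in Gli1 knockout marrow, where all genes had 0.01. Over the whole table of measured genes, 88.0% lay below Bax, 95.4% below Bak1 and 87.8% below Mcl1 with JAK2V617F in wild type, and 90.5%, 93.9% and 88.7% in Gli1 knockout marrow. Bcl2 lay at 13.5% and 2.78%. The 4 comparisons share libraries and so are not independent of each other.

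**Figure D4:**
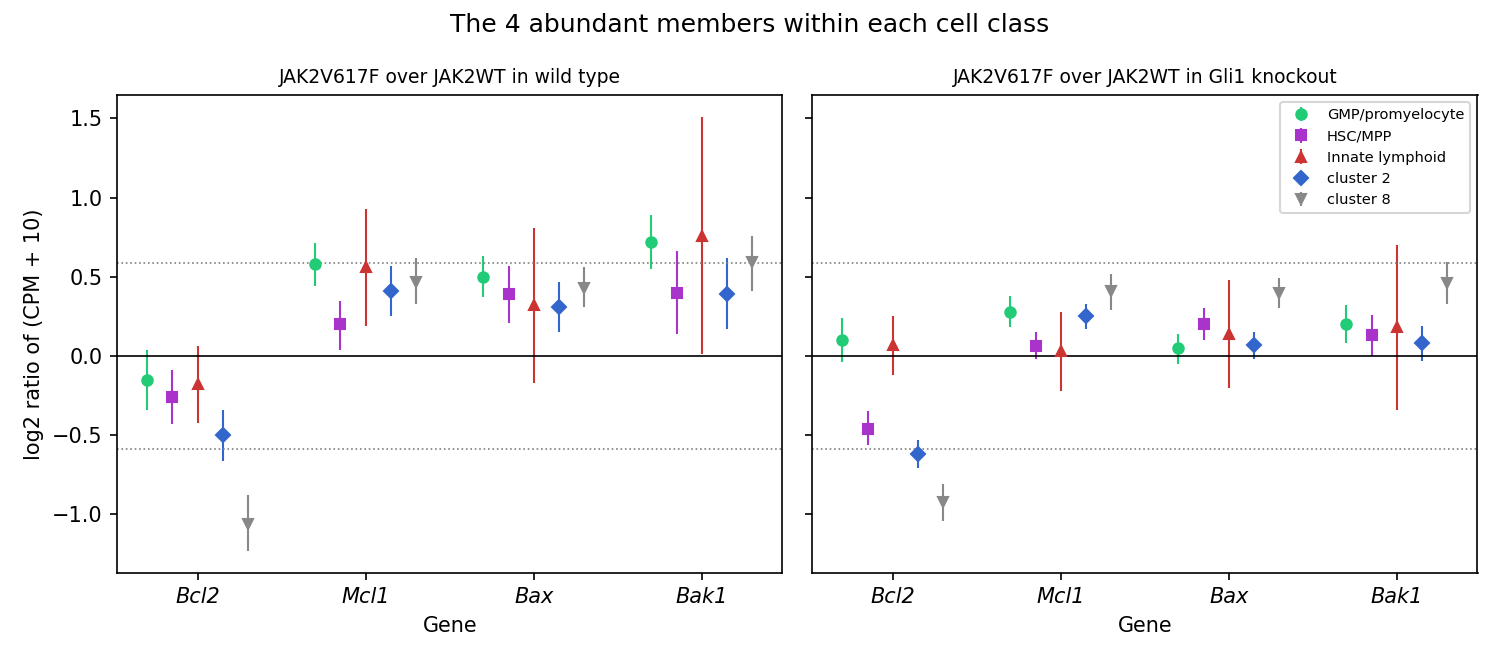
Log2 ratio of CPM + 10 (y axis), JAK2V617F over JAK2WT, of the 4 abundant members (x axis) within 5 cell classes (points) in wild type (left) and Gli1 knockout marrow (right), with 95% counting intervals; dotted lines mark 1.5-fold. Mcl1, Bax and Bak1 lie above 0 in all 5 classes of both panels, and Bcl2 is lowest in cluster 8 (-1.06 and -0.92).

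Of the 5 classes, cluster 8 had the largest balance difference in each genotype. In cluster 8, Bcl2 was at 116.1 (106.9 to 125.8), 50.66 (44.84 to 57.03), 167.6 (158.0 to 177.7) and 83.55 CPM (78.61 to 88.71), a log2 ratio with JAK2V617F of -1.06 (-1.23 to -0.88) in wild type and -0.92 (-1.04 to -0.81) in Gli1 knockout marrow. Of all genes measured in that cluster, 6.62% and 1.26% were at least 1.5-fold lower. Pmaip1 there was at 4.903, 13.68, 2.515 and 10.8 CPM, at least 1.5-fold higher in each genotype, as were 9.41% and 1.43% of all measured genes. The balance in cluster 8 differed by -0.61 (-0.77 to -0.46) and -0.70 (-0.81 to -0.58). Without cluster 8 the difference in Gli1 knockout marrow was -0.17.

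Bak1 was also at least 1.5-fold higher in cluster 8 in wild type marrow, at 99.3 against 62.8 CPM. In cluster 2, Bcl2 was at 81.4 against 131 CPM in Gli1 knockout marrow, at least 1.5-fold lower, as were 0.839% of all genes measured there.

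Monocyte-like cells, a separate cluster with 201, 32, 304 and 124 cells, had the same direction. Bcl2 was at 241.9 (227.0 to 257.6), 115.0 (93.78 to 139.6), 296.1 (285.4 to 307.1) and 153.9 CPM (143.1 to 165.4) there, and Bax at 141.9, 242.4, 129.3 and 202.0 CPM. Bak1 was at 50.12, 76.67, 68.29 and 111.2 CPM. The anti-apoptotic share was 64.2% (62.3 to 66.2), 46.1% (42.0 to 50.3), 67.5% (66.3 to 68.6) and 49.0% (47.3 to 50.8). Among other classes with at least 50 cells in both libraries, the pattern was not uniform. With JAK2V617F in Gli1 knockout marrow Bak1 was lower in erythroid-like cells (log2 ratio -0.60, -1.12 to -0.09). Bax was lower in NK cell-like cells (-0.46, -0.82 to -0.10). Mcl1 was lower in plasma cell-like (-0.43, -0.58 to -0.27) and T cell-like cells (-0.52, -0.93 to -0.12). Other ratios of Mcl1, Bax and Bak1 there were positive or had intervals spanning no difference. The 8 monocyte markers, all detected, summed to 958, 451, 773 and 564 standardised CPM over the 5 classes, lower with JAK2V617F. The 12 erythroid markers, all detected, summed to 202, 367, 255 and 299 CPM. Other marker sets differed too, such as HSC/MPP (1190, 1940, 1380 and 1810 CPM) and plasma cell (418, 169, 704 and 191 CPM). The part of these sets in the differences of the family was not tested.

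In GMP-like and innate lymphoid-like cells the counting interval of the Bcl2 ratio with JAK2V617F included 0 in both genotypes. In GMP-like cells Bcl2 was at 36.7 CPM with JAK2V617F against 41.8 in wild type and at 47.7 against 44.0 in Gli1 knockout marrow, with log2 ratios of -0.15 (-0.34 to 0.04) and 0.10 (-0.04 to 0.24). In innate lymphoid-like cells the ratios were -0.18 (-0.42 to 0.06) and 0.07 (-0.12 to 0.25). Bak1 in GMP-like cells was at 86.1 against 48.4 CPM in wild type, at least 1.5-fold higher, as was Pmaip1 and as were 5.62% of all genes measured in the class. The balance in them differed by -0.27 (-0.43 to -0.11) in wild type and by 0.10 (-0.02 to 0.22) in Gli1 knockout marrow. In HSC/MPP-like cells Bcl2 was at 110 against 134 and at 79.3 against 112 CPM, and the balance differed by -0.40 (-0.60 to -0.21) and -0.28 (-0.39 to -0.18). Innate lymphoid-like cells gave -0.38 (-0.85 to 0.09) and -0.14 (-0.46 to 0.18). These cells were shallow, and a large share of their genes passed 1.5-fold. With JAK2V617F in wild type, Bak1 (58.2 against 30.3 CPM) and Bbc3 (19.4 against 8.65) were among 14.8% higher and Bcl2l11 (9.69 against 23.8) among 16.5% lower. Bcl2l1 (26.8 against 47.5 CPM) was among 5.62% lower with JAK2V617F in Gli1 knockout marrow. Bcl2l11 was among 6.12% higher in Gli1 knockout over wild type with JAK2V617F, at 24.3 against 9.69 CPM.

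Shares of cells with a UMI are given at 1 fixed depth. After every cell was thinned to 2000 UMIs, Mcl1 was seen in 25.0%, 31.3%, 31.3% and 31.3% of HSC/MPP-like cells and Bax in 15.6%, 24.1%, 21.5% and 22.5%. Before thinning the shares were 64.4%, 82.4%, 86.2% and 82.7% for Mcl1 and 54.4%, 72.7%, 77.2% and 74.4% for Bax. Thinning left out 22, 4, 2 and 55 cells with fewer UMIs. Bcl2 was seen in 64.7%, 54.4%, 53.9% and 57.2% of innate lymphoid-like cells after thinning, and in 8.05%, 7.89%, 7.71% and 11.1% of GMP-like cells. Unthinned these were 61.1%, 62.0%, 72.3% and 74.6%, and 43.7%, 50.9%, 62.9% and 63.2%. Thinning left out 77, 57, 15 and 122 innate lymphoid-like cells and 4, 3, 1 and 13 GMP-like cells. In erythroid-like cells, the class with the lowest mean of Bcl2 over libraries, it was seen in 0%, 1.16%, 0% and 1.96% after thinning and in 12.5%, 6.83%, 4.00% and 17.3% before, at median depths of 15649, 13141, 10549.5 and 14968.5 UMIs.

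Other genes of the pathway came from 6 lists and are described by counts and medians. With JAK2V617F in wild type marrow, 12 of 14 genes of the caspase and apoptosome list were measured, and 0 reached 1.5-fold in either direction (median log2 ratio 0.13, all genes 0.05). Endog, a mitochondrial nuclease, was at 31.8 against 18.9 CPM and Apaf1, the apoptosome scaffold, at 20.2 against 29.7. Of the inhibitors of apoptosis and FLIP, 6 of 7 were measured and 1 was at least 1.5-fold lower (median -0.18). That was Xiap, a caspase inhibitor, at 34.0 against 57.4 CPM, with Cflar, the brake on caspase-8, at 40.6 against 64.7. In Gli1 knockout marrow 0 of 6 reached 1.5-fold (median -0.12), and Xiap was at 35.8 against 43.3 CPM.

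Upstream regulators of the members differed in both directions. Of 16, 15 were measured with JAK2V617F in wild type marrow, 2 at least 1.5-fold higher and 2 lower (median 0.03). Pim1, a kinase transcribed below JAK and STAT signalling, was at 257 against 155 CPM and Myc at 168 against 105. Stat5b was at 18.9 against 38.4 CPM, and Usp9x, a deubiquitinase known to stabilise MCL1 protein, at 55.4 against 97.9. In Gli1 knockout marrow 0 of 14 measured reached 1.5-fold (median -0.00), with Pim1 at 257 against 195 CPM and Usp9x at 54.4 against 66.4. The p53 list had 7 of 14 measured and 1 at least 1.5-fold higher in wild type, Aen at 47.5 against 26.8 CPM (median 0.04), and 0 in Gli1 knockout marrow. Among mitochondrial partners 12 of 13 were measured and 1 was at least 1.5-fold higher in wild type (median 0.12), the BAK-binding channel Vdac2 at 437 against 249 CPM. Of 13 other BCL2 family genes 4 were measured and 0 reached 1.5-fold (median 0.07), the highest ratio being that of Bad at 58.6 against 43.5 CPM. In Gli1 knockout marrow these last 2 lists had 0 past 1.5-fold (medians 0.11 and 0.07).

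For Gli1 knockout over wild type with JAK2V617F, 0 genes of any of the 6 lists reached 1.5-fold, and with JAK2WT again 0. Among the members, Bbc3 was at 8.25 against 5.10 CPM with JAK2WT, a plain ratio of 1.62 (1.14 to 2.29) and higher in 5 of 5 classes. Pmaip1 was at 5.33 against 8.35 CPM with JAK2V617F, a ratio of 0.638 (0.540 to 0.753), lower in 4 of 5 classes. Bcl2 in cluster 8 was at 83.5 against 50.7 CPM with JAK2V617F, at least 1.5-fold higher, as were 0.979% of all genes measured there, while over all 5 classes its log2 ratio was -0.11 (-0.21 to -0.01), and 0.77 over all kept cells, where makeup differs.

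Across 38 units of library and named class with at least 50 cells, the genes most like each abundant member were found by Pearson correlation of log2(CPM + 10) over 5653 genes, as a description. Units of 1 class or 1 library share cells' type and depth. Bcl2 was most like Mndal, Anxa6 and Dock10 (r = 0.93 each), and Mcl1 like Klf2 (0.91), Cd52 and Slfn2 (0.83 each). Bax was most like Taf10 (0.94), Tial1 and Tsr3 (0.93 each), and Bak1 like Vps29 (0.91), Copz1 (0.90) and Ldha (0.88). Between members, Bax and Bak1 had r = 0.57, Bcl2 and Mcl1 0.33, and Mcl1 and Bax -0.36.

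Barcodes that the cell filter removed for a high mitochondrial share had more anti-apoptotic transcript. In wild type with JAK2WT the anti-apoptotic share was 62.0%, 70.4%, 76.3% and 73.8% for barcodes with under 5%, 5 to 10%, 10 to 20% and at least 20% mitochondrial UMIs. It was 45.4%, 42.9%, 61.8% and 65.1% in wild type with JAK2V617F, 61.3%, 64.9%, 70.3% and 72.5% in Gli1 knockout with JAK2WT, and 53.9%, 67.0%, 71.5% and 77.0% with JAK2V617F. Bcl2 carried most of it, with 129, 51.1, 140 and 90.9 CPM in the lowest bin and 305, 217, 294 and 414 CPM in the highest, mitochondrial UMIs left out of the total. Median depth was lower in the highest bin, at 2163.5, 1966, 2833 and 2395 UMIs against 5240, 15014, 19238 and 15320.5 in the lowest. The cell types behind these barcodes were not resolved.

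**Figure D5:**
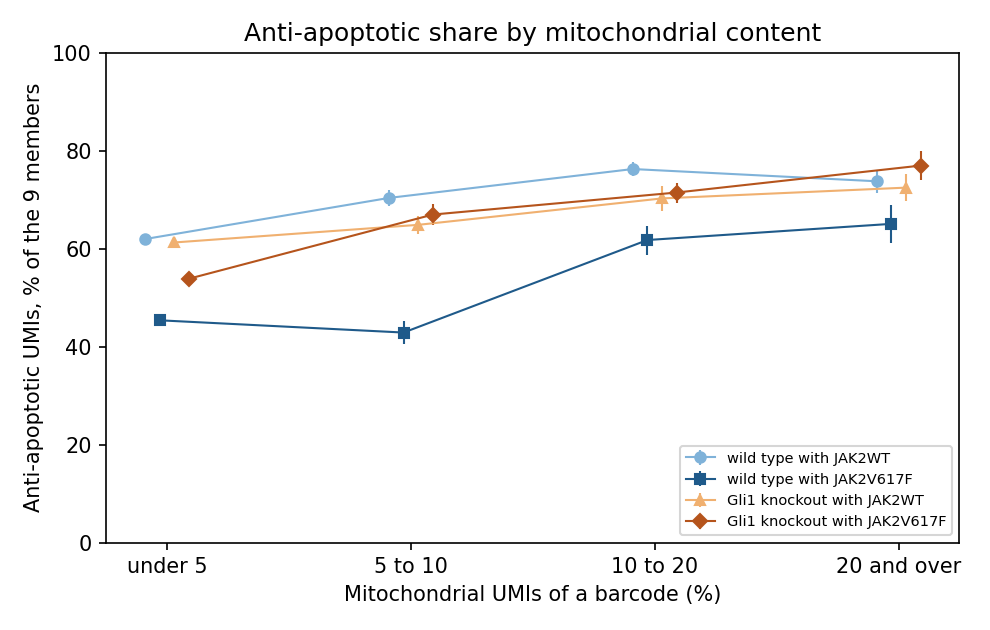
Share of anti-apoptotic UMIs among the 9 members (y axis, percent) by the mitochondrial share of a barcode (x axis) in the 4 libraries (lines), with exact Clopper-Pearson 95% intervals. Each library's highest bin (65.1% to 77.0%) lies above its lowest (45.4% to 62.0%).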

How the data were processed

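Libraries were made with the 10x 3' v3.1 chemistry, per the labels' protocols. The submitters' processing notes name Cell Ranger 4.0.0, Seurat 4.0.4 and mm10. The deposited values are counts: raw UMIs per gene and barcode, not normalised. The hashing-tag libraries were not analysed here, so mice could not be separated and a library is 1 sample.

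Cells needed at least 500 genes, 1000 UMIs and under 10% mitochondrial UMIs. Scrublet's highest-scoring 0.8% per 1000 barcodes were removed as doublet candidates (791, 170, 229 and 455 cells). All cells were clustered jointly in scanpy 1.11.5 (2000 variable genes without the members, sex-linked genes and GFP, 30 components, 15 neighbours, Leiden resolution 1.0, no batch correction) on Python 3.11.15. Clusters were named from 18 marker sets by a score of at least 0.5, a margin of 0.25, at least 3 markers at 50 CPM and at least 2 among the 10 leading genes; these limits were adjusted after the clusters were seen. The rebuilt names may differ from the study's.

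UMIs were summed by library and class and scaled to CPM, with exact Poisson and Clopper-Pearson intervals. Standardised CPM used the same class weights in every library. A gene was called at 1.5-fold after adding 10 CPM, if it had 10 CPM or more on one side. All members are named, and of each list the 2 highest and 2 lowest ratios were eligible. Alternatives changed clustering, cell filters, doublets, totals, added CPM, classes and members, one at a time. The arithmetic was tested on simulated counts. Promoters and their coordinates are from RefSeq and the Bcl2a1 transcripts from GENCODE M21. The members and lists were chosen with earlier results of these data known.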

Additional observations from a re-analysis of the deposited data

Results flagged for a closer look

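The log2 ratio of Gli1 knockout over wild type had opposite signs with the 2 transgenes for Mcl1, at -0.10 (-0.17 to -0.04) with JAK2V617F and 0.13 (0.04 to 0.23) with JAK2WT, with both counting intervals clear of 0. The same held for Bax, at -0.08 (-0.14 to -0.02) and 0.15 (0.06 to 0.24). In GMP-like cells Bax was at -0.22 and 0.23, and Bak1 at -0.15 and 0.37. Each value with JAK2WT has the library of wild type marrow with JAK2WT as its denominator, the lowest of the 4 for these 3 members. With 1 library per group these differences were not tested. GFP, read from the vector, had a UMI in 0.570%, 2.62%, 0.159% and 0.978% of kept cells, too few per class to compare the members in cells with and without it.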

How the results depend on the processing

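No paired analysis was possible because each group is 1 library. Over 18 alternatives the balance with JAK2V617F kept its sign in 18 in each genotype (ranges -1.02 to -0.25 in wild type and -0.47 to -0.17 in Gli1 knockout marrow), while the genotype difference kept it in 16 with JAK2V617F (-0.08 to 0.51) and in 17 with JAK2WT (-0.35 to 0.02). Values outside the counting interval, in the order JAK2V617F in wild type, JAK2V617F in Gli1 knockout, Gli1 knockout with JAK2V617F and with JAK2WT, were as follows. Sums over all kept cells, with no fixed class weights, gave -1.02, -0.44, 0.51 and -0.07. Leaving out Mcl1 gave -0.79 in the first, -0.47 in the second and -0.35 in the last. Weighting every member equally gave -0.29 in the first and -0.17 in the second. Clustering resolution 1.5, with redrawn clusters and 4 classes, gave -0.25 in the first and 0.02 in the last, and resolution 0.6, with 4 classes, -0.35 in the second and -0.07 in the last. Leaving out cluster 8 gave -0.17 in the second. The number of members past 1.5-fold was 0 in all comparisons but 1 with JAK2V617F in wild type under 4 settings: Pmaip1 without mitochondrial, ribosomal, haemoglobin and immunoglobulin genes in the total, Bcl2 (lower) over all kept cells, and Bak1 without HSC/MPP-like cells or with 1 CPM added. In that order, 7.96%, 20.9%, 7.64% and 15.9% of all measured genes passed 1.5-fold in either direction under these settings. Over all kept cells the number of members was also 1 for Gli1 knockout with JAK2V617F, Bcl2 (higher), where 9.14% of all measured genes passed. The cause was not tested. Including classes with at least 50 cells per library, added after seeing the data, moved no balance outside its interval. Depth limits Bcl2a1b, Pmaip1 and Bbc3 most, and 1 library per group limits every comparison.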
